A study of Homo sapiens with 15 samples.

Results

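Chromosome 6 was examined in Pt-exo-seq libraries from PEO1 and PEO4, a pair of high-grade serous ovarian cancer cell lines that are sensitive (PEO1) and resistant (PEO4) to cisplatin and were derived from 1 patient. The members were all 190128 windows of 1 kb on chromosome 6, out of 3373681 windows on chromosomes 1 to 22 and X. Windows with a midpoint under 61 Mb on hg19 were taken as 6p (67778 windows) and the others as 6q (122350 windows). Within 6p, the window from 26 to 28 Mb, which spans the large histone gene cluster, held 2222 members, and the one that spans the major histocompatibility complex (MHC) held 5444, with midpoints from 28500800 to 33399500. Libraries were made from untreated PEO1, PEO1 at 16 µM cisplatin, untreated PEO4, 16 µM PEO4 and 32 µM PEO4, with treatment for 5 h and 3 libraries in each of the 5 groups. The study set 16 µM PEO1 against PEO4 both at the same dose and at 32 µM, a dose chosen to load a like amount of platinum on the DNA. Each state is represented by a single established line, so that resistance and any other difference between the lines cannot be told apart.

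Cisplatin joins neighbouring guanines of a DNA strand, and in Pt-exo-seq an exonuclease digests sheared DNA until such a platinum adduct stops it. Fragments that escape digestion are sequenced too, so the reads of untreated cells give the background of the assay. That background can vary with the amount of each region in the genome of the cells, among other things. The histone cluster of 6p holds many short copies of the genes for the replication-dependent histones that package new DNA, and the MHC holds the HLA genes, whose products present peptides to T cells, together with complement, cytokine and antigen-processing genes. Cancer genomes gain and lose chromosome arms and segments, and a gain or loss can show in reads of genomic DNA as a step in read density.

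Chromosome 6 was chosen by results already seen in these data: its share of reads differed between the untreated lines, and a bin of 100 kb at 34.3 Mb had stood out in the difference between the cisplatin responses. The comparison of the untreated lines and that bin are therefore given as descriptions, without a test. The treated libraries, which are other libraries of the same lines, were used to test the line difference. The comparisons of 16 µM PEO4 and of 32 µM PEO4 with 16 µM PEO1 share the 3 PEO1 libraries. The values do not separate the number of DNA copies in a cell from the reads obtained per copy, and copy number was not measured by another method here.

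Library totals ranged from 27.7 to 56.6 M counts (M, 1e6). Of the windows of chromosome 6, 5241 (2.76%) had no read in any library, against 8.54% in the rest of the genome. Replicates of a group differed by more than counting noise (chi-square per degree of freedom between 5.46 and 17.1 for the 15 pairs), and none was a duplicate of another. The labels do not say whether replicates came from separate cultures, so p-values measure the spread between these libraries only.

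The sequences that the results turn on were read from the plus strand of GRCh37 (hg19), and capitals mark runs of GG or CC, which are the adjacent guanines of either strand. The first is centred on the position at which read density stepped up along 6q in PEO1. The step of PEO1 lies in an intron of IBTK at chr6:82896201-82896400, has a GC content of 35.5% and holds 10 GG or CC pairs.
Step of PEO1 on 6q: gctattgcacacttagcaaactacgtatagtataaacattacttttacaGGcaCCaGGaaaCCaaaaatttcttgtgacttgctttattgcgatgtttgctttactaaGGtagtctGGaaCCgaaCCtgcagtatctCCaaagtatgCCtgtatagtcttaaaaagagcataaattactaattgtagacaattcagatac
The next sequence is shown because it lies where reads were missing in the middle of the MHC. It is part of C4A, a complement gene, at chr6:31950701-31950900 (GC content 57.0%, 47 pairs), and the same 200 bases occur again in C4B at chr6:31983439-31983638.
C4A stretch: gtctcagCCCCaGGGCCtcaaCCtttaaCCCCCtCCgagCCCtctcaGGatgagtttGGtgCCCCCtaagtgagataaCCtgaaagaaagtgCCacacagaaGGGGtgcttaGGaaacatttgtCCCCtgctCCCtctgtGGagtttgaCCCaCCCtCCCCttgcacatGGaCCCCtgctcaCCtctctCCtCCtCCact
The last pair comes from the bins of 100 kb with the smallest p in each direction for the response difference on chromosome 6, and each stretch was picked to match the GC content and GG or CC density of its bin. The first lies in NUDT3 and the read-through gene RPS10-NUDT3 at chr6:34309301-34309500 (GC content 43.5%, 24 pairs). The second lies in LAMA2 at chr6:129633701-129633900 (16 pairs).
Bin with a lower response difference: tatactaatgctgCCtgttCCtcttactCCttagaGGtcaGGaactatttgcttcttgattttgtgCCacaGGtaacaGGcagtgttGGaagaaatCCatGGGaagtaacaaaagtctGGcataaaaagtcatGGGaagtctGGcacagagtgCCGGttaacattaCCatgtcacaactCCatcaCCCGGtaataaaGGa
Bin with a higher response difference: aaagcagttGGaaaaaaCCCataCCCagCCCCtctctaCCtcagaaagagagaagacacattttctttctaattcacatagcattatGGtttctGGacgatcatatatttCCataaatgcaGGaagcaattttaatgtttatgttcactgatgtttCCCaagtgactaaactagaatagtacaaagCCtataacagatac

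The first question was whether PEO1 and PEO4 differ in the reads that fall on chromosome 6. PEO4 gave more reads on 6p than PEO1 by a factor close to 2, at every dose, whereas 6q as a whole differed little. In untreated cells, 6p took 1.20%, 1.22% and 1.21% of the counts in the 3 PEO1 libraries and 2.36%, 2.35% and 2.37% in the 3 PEO4 libraries. The difference was 1.95-fold, given as a description. Chromosome 6 as a whole took 4.80% ± 0.0774 (SD, n = 3) in PEO1 and 6.04% ± 0.0763 in PEO4. For 6q the untreated libraries overlapped, at 3.59% in PEO1 and 3.68% in PEO4.

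The same order was found in the treated libraries. The share of 6p was 1.23%, 1.20% and 1.20% in 16 µM PEO1, 2.33%, 2.36% and 2.36% in 16 µM PEO4, and 2.37%, 2.29% and 2.32% in 32 µM PEO4. All 6 treated PEO4 libraries lay above all 3 treated PEO1 libraries. The ratio was 1.94-fold at 16 µM and 1.92-fold for 32 against 16 µM (exact permutation test, two-sided, p = 0.1 for each, the smallest value that 3 libraries against 3 allow, with an adjusted p of 0.115 over 15 comparisons). The share of 6q was 3.34%, 3.64% and 3.63% in 16 µM PEO1 and 4.01%, 3.64% and 3.70% in 16 µM PEO4, so that the groups overlapped (1.07-fold, exact permutation p = 0.2, adjusted p = 0.214). At 32 µM, 6q took 3.66%, 4.05% and 3.96% in PEO4 and did not overlap with PEO1 (1.10-fold, exact permutation p = 0.1). After division of the counts by the GC trend of the library, the log2 difference of 6q was 0.11 in both treated comparisons, without overlap (exact permutation p = 0.1). The ratio of read density on 6p to that on 6q needs no library total and was taken over windows with a read in any library. It was 0.637 ± 0.0421 in 16 µM PEO1 and 1.16 ± 0.0685 in 16 µM PEO4 (SD, n = 3 each).

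Both gene clusters of 6p were higher in PEO4. The histone window took 0.0356% of the counts in untreated PEO1 and 0.0696% in untreated PEO4, and 0.0358% and 0.0688% at 16 µM (1.92-fold, no overlap, exact permutation p = 0.1). The MHC window took 0.0976% in untreated PEO1, 0.199%, 0.195% and 0.206% in the untreated PEO4 libraries, and 0.193% in 16 µM PEO4 (1.93-fold that of 16 µM PEO1, no overlap, exact permutation p = 0.1). Within a library, the density of reads in the histone window was slightly below that of the rest of 6p, at 0.885 ± 0.00239 of it in 16 µM PEO1 and 0.878 ± 0.00738 in 16 µM PEO4, and the groups overlapped (exact permutation p = 0.2). The MHC window stood at 0.991 ± 0.0484 of the rest of 6p in 16 µM PEO1 and 0.986 ± 0.0589 in 16 µM PEO4 (exact permutation p = 1.0). Among untreated libraries, given as a description, it stood at 0.966 ± 0.0442 in PEO1 and 1.02 ± 0.0274 in PEO4, a log2 difference of 0.08 without overlap. The line ratio of the whole arm at 16 µM was 1.94-fold.

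The second question was where along the chromosome the lines differ. Counts were summed into bins of 100 kb, of which 1676 on chromosome 6 were deep enough to test, and compared with edgeR's quasi-likelihood test across all 28190 bins of the genome. At 16 µM, 795 bins of chromosome 6 (47.4%) were higher in PEO4 at an adjusted p under 0.05, against 12.9% of all bins, and 4 were lower, against 10.5% of all bins. For 32 µM PEO4 against 16 µM PEO1, 795 bins were higher (12.8% of all bins) and none was lower (10.5% of all bins, 3 on chromosome 6 by DESeq2, with 828 bins at an unadjusted p under 0.05 in either direction). In untreated cells, 796 bins were higher (14.4% of all bins) and 12 lower (10.7% of all bins), which is given as a description.

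In bins of 1 Mb, 80 of 168 on chromosome 6 were higher in 16 µM PEO4, against 14.1% of all 2866 bins. None was lower in edgeR, against 11.4% of all bins, while DESeq2 called 2 lower and 84 bins had an unadjusted p under 0.05 in either direction in edgeR. In untreated cells, 80 bins were higher (15.8% of all bins) and 1 lower (12.2% of all bins), given as a description. The 1 Mb bins of 6p that stood highest were 58 to 59 Mb at a log2 ratio of 1.34 in untreated cells, 56 to 57 Mb at 1.30 and 34 to 35 Mb at 1.29. The lowest on 6p was 49 to 50 Mb at 0.56. On 6q the highest was 74 to 75 Mb, which holds CGAS and EEF1A1, at 1.09, and the lowest was 165 to 166 Mb, which holds PDE10A, at -0.18.

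The bins that differed formed a few long stretches with sharp ends. A segmentation of the untreated libraries in steps of 50 kb divided the chromosome into 8 blocks, which are called A to H from the short arm to the end of the long arm, and left out 10 short segments, 5 of them between 57.15 and 62.1 Mb around the centromere. Block A ran from 0.4 to 49.1 Mb, block B from 49.1 to 49.35, block C from 49.35 to 55.7 and block D from 55.7 to 57.15 Mb. Block E ran from 62.25 to 82.9 Mb on 6q, block F from 82.9 to 151.25, block G from 151.25 to 153.0 and block H from 153.0 to 170.9 Mb. Because the blocks were drawn on the untreated libraries, their levels there are descriptions, and the treated libraries were used for the tests.

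**Figure D1:**
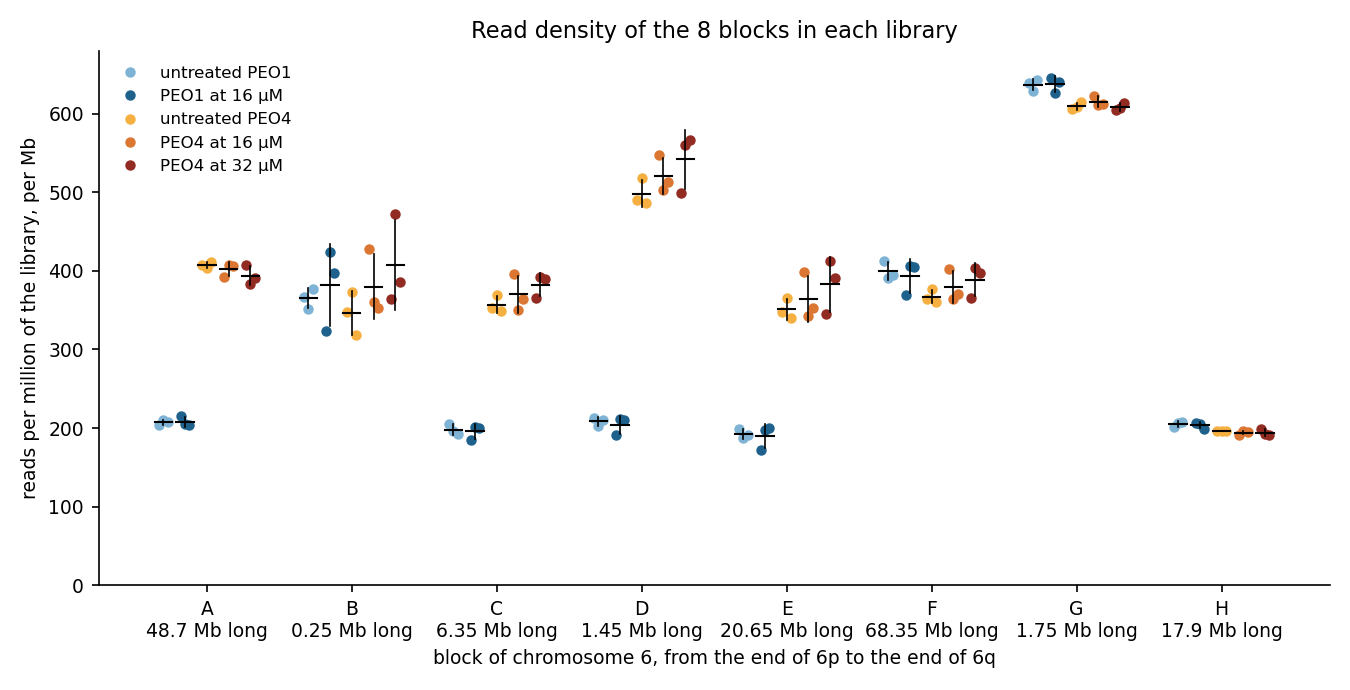
Read density, in CPM per Mb, of the 8 blocks in each library. Points are libraries and bars are the mean ± SD of the 3 libraries of a group. PEO1 is near 200 in blocks A, C, D, E and H and near 400 in blocks B and F, PEO4 is near 400 in blocks A and C, near 500 in block D and near 200 in block H, and both lines lie highest in block G.

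PEO1 stood at 1 level over most of 6p and the first stretch of 6q and at a level close to double beyond 82.9 Mb, while PEO4 stood at the higher level on both. In block A, read density was 215, 205 and 204 CPM per Mb (CPM, counts scaled to a library total of 1e6) in 16 µM PEO1 and 392, 408 and 407 in 16 µM PEO4. In block E it was, at the same dose, 173, 198 and 200 in PEO1 and 398, 343 and 353 in PEO4. In block F it was 369, 406 and 405 in PEO1 and 403, 365 and 371 in PEO4. Libraries of the lines did not overlap in blocks A and E and overlapped in block F, where all libraries of both lines lay at the higher level.

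Block H, the end of the long arm, was at the lower level in both lines, with 207, 205 and 199 in 16 µM PEO1 and 192, 196 and 195 in 16 µM PEO4, and it was used as the reference within a library. Over block H, block A stood at 1.02 ± 0.0182 in 16 µM PEO1 and 2.07 ± 0.0226 in 16 µM PEO4, and block E at 0.934 ± 0.0887 and 1.88 ± 0.174. The ratio of PEO4 to PEO1 was 2.03-fold in block A, 1.98-fold in block C, 2.67-fold in block D and 2.01-fold in block E (no overlap, exact permutation p = 0.1 each, adjusted p = 0.175 over 21 comparisons). It was 1.05-fold in block B (exact permutation p = 0.8), 1.01-fold in block F (p = 0.9 in the same exact test) and 1.01-fold in block G (exact permutation p = 0.6), all with overlap. Block H itself was lower in 16 µM PEO4, at 0.954-fold and without overlap, which raises the ratios taken over it. In read density without that reference, the ratio was 1.93-fold in block A, 1.89-fold in block C and 2.55-fold in block D. It was 1.92-fold in block E, 0.964-fold in block F and 0.965-fold in block G.

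Blocks A, C, D and E were called without exception, against 12.9% of all bins of the genome. These counts are descriptions, since the blocks were drawn on untreated libraries of the same lines and the bins of a block are not replicates. At 16 µM, 487 of 487 bins of 100 kb were higher in PEO4 in block A, 63 of 63 in block C, 14 of 14 in block D and 206 of 206 in block E, by edgeR at an adjusted p under 0.05. In block F, 1 of 682 bins was higher and 4 were lower. None of the 2 bins of block B, of the 17 of block G or of the 179 of block H was called in either direction.

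**Figure D2:**
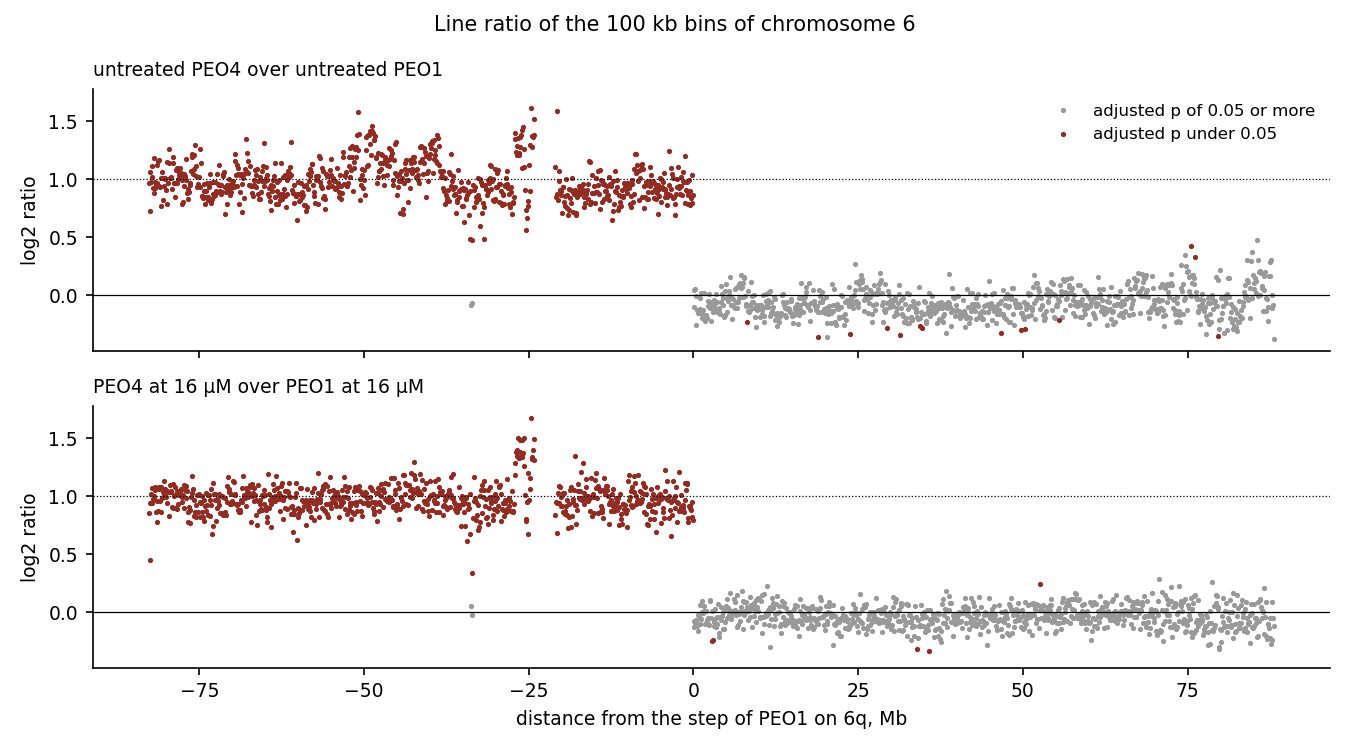
Log2 ratio of PEO4 to PEO1 in bins of 100 kb by distance in Mb from the step of PEO1 on 6q, in untreated cells (upper panel) and at 16 µM (lower panel). Red points had an adjusted p under 0.05. The ratio falls from near 1 to near 0 at the step, and the 206 bins of block E to its left were all higher in 16 µM PEO4.

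Block D stood apart on 6p because PEO4 rose there above its own level on the arm. Its read density was 547, 503 and 513 in 16 µM PEO4 and 191, 211 and 211 in 16 µM PEO1, so that PEO1 stayed at the level of the blocks beside it. Over block H its mean stood at 2.68 at 16 µM and 2.79 at 32 µM. The stretch holds 7 protein-coding genes that could be tested, and all 7 were higher in 16 µM PEO4 (9.75% of all genes): COL21A1, which encodes a collagen chain, DST, which encodes the cytoskeletal linker dystonin, BEND6, KIAA1586, ZNF451, BAG2, a partner of the chaperone HSP70, and RAB23, a small GTPase of hedgehog signalling.

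Block B was the opposite case, a stretch of 6p in which PEO1 rose to the level of PEO4. Its read density was 323, 424 and 397 in 16 µM PEO1 and 428, 360 and 352 in 16 µM PEO4. The PEO1 libraries lay above all their own values in blocks A and C, and the lines overlapped. No tested protein-coding gene lay in block B.

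Block G, a short rise on 6q, was common to both lines. Its read density was 646, 627 and 640 in 16 µM PEO1 and 623, 610 and 613 in 16 µM PEO4, and over block H it stood at 3.13 ± 0.0754 and 3.17 ± 0.0691. The stretch holds AKAP12, a scaffold for protein kinase A, ZBTB2, RMND1, ARMT1, CCDC170, the estrogen receptor gene ESR1 and SYNE1, which encodes a protein of the nuclear envelope. None of these 7 genes was called at 16 µM in edgeR (adjusted p under 0.05), against 9.75% of all genes called higher and 7.19% lower. For ESR1 the level in CPM per Mb was 619, 642 and 661 in 16 µM PEO1 and 632, 604 and 582 in 16 µM PEO4, with a log2 ratio of -0.06 ± 0.09 (SE). Among the untreated libraries, given as a description, its log2 ratio was -0.26 and it was the 1 gene of the stretch called lower in PEO4.

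The ends of the stretches were then placed by the counts of single windows of 1 kb within 100 kb on either side. An end found in 1 line was placed where that line's share of the counts of all libraries of both lines changed most, and the ends of the shared rise were placed in each line alone. To place an end found in 1 line by dose, the libraries of that dose were set against all libraries of the other line. Such placements by dose share the libraries of the other line and are not independent. The step of PEO1 on 6q fell at 82896301, the first base to the right of the split, in an intron of IBTK. Summed over the 6 PEO1 libraries, a window held 35.0 counts to its left and 79.8 to its right, against 98.5 and 123 in the 9 PEO4 libraries. Set against all 9 PEO4 libraries, the untreated PEO1 libraries placed it at 82895401 and those at 16 µM at 82897201, so that the doses lay within 0.9 kb of the joint position.

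The rise shared by the lines began at 151.24 Mb in PEO1 and, in a separate search, at the same window in PEO4, in an intron of MTHFD1L, a mitochondrial enzyme of folate metabolism. Its right end in PEO4 lay 4 steps of the windows beyond that in PEO1. In PEO4, the libraries at 16 µM alone moved the right end by -3.6 kb, those at 32 µM alone by -1.8 kb and the untreated ones by 0.0 kb. In steps of 10 kb, the right end was found at 153.01 Mb as the median, within 20 kb of it in all 6 PEO1 and all 9 PEO4 libraries.

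The rise of PEO1 on 6p was placed between 49077001 and 49339801. With only the PEO1 libraries at 16 µM set against PEO4, the left end lay 4.5 kb and the right end 6.3 kb further to the right. In steps of 10 kb, both ends were found within 20 kb of the median in 6 of 6 PEO1 libraries. The rise of PEO4 at the start of block D was the least sharp. It fell at 55709101 in BMP5, which encodes a bone morphogenetic protein, and at 55728901 in the untreated libraries, 55700101 at 16 µM and 55687501 at 32 µM. In 7 of 9 PEO4 libraries the step lay within 20 kb of the median. No annotated exon overlapped the windows of any of these splits.

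**Figure D3:**
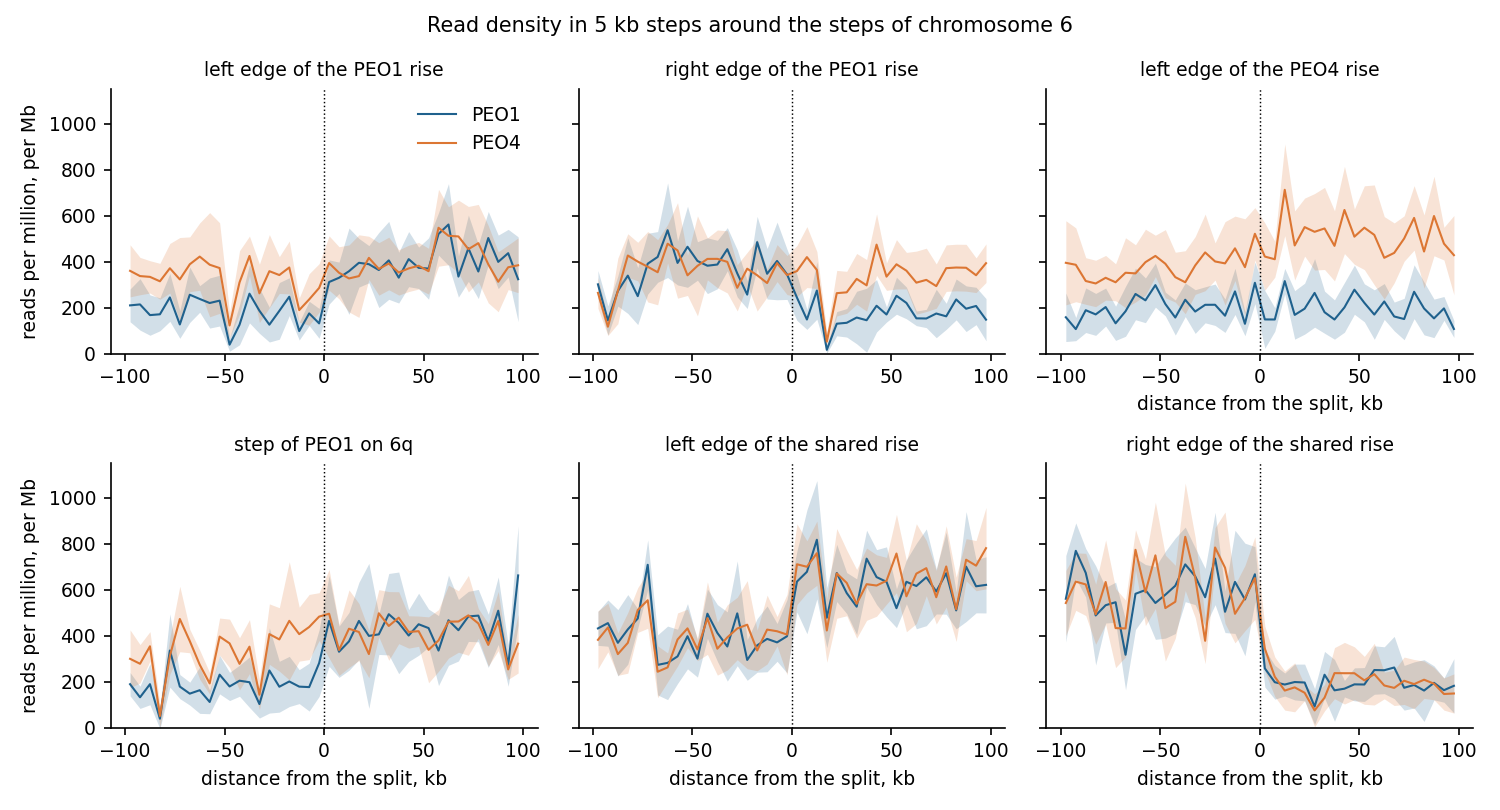
Read density in CPM per Mb, in steps of 5 kb within 100 kb of each of the 6 splits. Lines are the means over the 6 PEO1 and the 9 PEO4 libraries and shades are ± SD. PEO1 alone steps at both ends of its rise on 6p and at 82.9 Mb, PEO4 alone steps at 55.7 Mb, and both lines step at both ends of the rise that they share.

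The genes of the histone cluster were then considered one by one. These genes are short, and they held a median of 3 windows of 1 kb and of 30.0 counts per library, against 337 for all tested genes of chromosome 6, so that single genes were measured with little precision. Across all 1028 tested protein-coding genes of chromosome 6, 499 were higher in 16 µM PEO4 (48.5%), against 9.75% of all 19440 genes, and none was lower, against 7.19% of all genes (DESeq2 called 2 lower, and 583 had an unadjusted p under 0.05 in either direction in edgeR). In untreated cells, 535 were higher (12.8% of all genes) and 19 lower (8.69% of all genes), given as a description. Of the 50 histone genes in the window, 38 reached the mean count of 20. Of these, 9 were higher in 16 µM PEO4 and none was lower, with 15 at an unadjusted p under 0.05, and the median log2 ratio was 0.97 beside 0.82 for all tested genes of the chromosome and -0.01 for all genes. The reads of near-identical histone gene copies can be assigned to one another, so values of single copies are uncertain.

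H2BC4, a gene for histone H2B that spans 26086545 to 26124154 on the minus strand, was singled out after its values were seen, since with 44 windows it was the longest. All windows of this annotated span were counted, so its values are not those of a short histone gene alone. HFE, given below, and part of H2BC4 lie in the bin from 26 to 26.1 Mb, and windows that they may share were not set apart. The level of H2BC4 was 186, 181 and 155 CPM per Mb in 16 µM PEO1 and 410, 330 and 358 in 16 µM PEO4, with a log2 ratio of 1.10 ± 0.15 (SE, edgeR adjusted p = 4.0e-06). The lines did not overlap, and the response of H2BC4 to cisplatin was near 0 in both. H1-3, a linker histone gene with 3 windows, stood at 0, 134 and 169 in 16 µM PEO1 and 239, 575 and 693 in 16 µM PEO4, with a log2 ratio of 2.25 ± 0.67. Its PEO1 libraries were at 212, 258 and 165 without treatment. H4C9, a gene for histone H4, shows how unsteady such short genes were: it stood at 445, 46 and 466 in 16 µM PEO1 and 126, 328 and 432 in 16 µM PEO4, which overlapped, after 96, 118 and 71 and 602, 595 and 539 in untreated cells. H2AC7, a gene for histone H2A, went the other way, at 393, 202 and 282 in PEO1 and 304, 305 and 423 in PEO4 without treatment, which overlapped, and 91, 113 and 94 in 16 µM PEO1 and 287, 437 and 392 in 16 µM PEO4.

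The other 17 genes of the histone window, which are longer, were measured more evenly. At 16 µM, 13 of them were higher in PEO4 (9.75% of all genes) and none was lower (7.19% of all genes), with a median log2 ratio of 1.04. They included the butyrophilin genes BTN3A2 (log2 ratio 1.20), BTN2A2 (1.15), BTN3A1 (1.25), BTN2A1 (0.86) and BTN1A1 (1.08), which encode membrane proteins of the immunoglobulin family, and HFE, a regulator of iron uptake (1.01). HMGN4, which encodes a nucleosome-binding protein, stood at 120, 149 and 198 in 16 µM PEO1 and 329, 472 and 401 in 16 µM PEO4 (log2 ratio 1.36 ± 0.29). ZNF184, a zinc finger gene, stood at 156, 235 and 201 in PEO1 and 356, 307 and 417 in PEO4 (0.88 ± 0.22). OR2B6, an olfactory receptor gene with 3 windows, did not pass the test at 0.37 ± 0.69, its PEO1 libraries lying at 137, 10 and 480.

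Bins of 100 kb pool these genes with the sequence between them. All 20 bins of the histone window were higher in PEO4, at 16 µM (12.9% of all bins) and for 32 against 16 µM (12.8% of all bins). The log2 ratio at 16 µM ran from 0.82 to 1.16 with a median of 0.94. The bin with the highest ratio in untreated cells was 26 to 26.1 Mb, which stood at 21.5, 20.4 and 21.4 CPM in 16 µM PEO1 and 36.9, 35.6 and 37.7 in 16 µM PEO4. The bin with the lowest was 26.9 to 27 Mb, at 7.0, 12.1 and 11.4 in PEO1 and 26.6, 18.2 and 19.8 in PEO4.

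That low level in all libraries went with repeated sequence. From 26.7 to 27 Mb, 68 of 333 windows had no read in any library, and in all 68 at least 90% of the stretches of 31 bases occurred more than once on chromosome 6. Over the whole histone window, all 74 windows without reads were repeated in this way, against 7 of the 2148 windows with reads. In the MHC window, 47 of 85 windows without reads were repeated, against 18 of 5359 windows with reads. The handling of reads with several matches by the aligner was not given in the sources used here.

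Most HLA genes of the MHC passed the test as higher in PEO4. The 8 class I genes include MICA and MICB and serve T cells and natural killer cells. Of these, 5 were higher in 16 µM PEO4 (9.75% of all genes) and none was lower (7.19% of all genes). HLA-E stood at 227, 131 and 180 CPM per Mb in 16 µM PEO1 and 327, 336 and 633 in 16 µM PEO4 (log2 ratio 1.30 ± 0.33, edgeR adjusted p = 0.0051). HLA-B and HLA-C, classical genes that present peptides to CD8 T cells, did not pass the test at 16 µM, with log2 ratios of 0.50 ± 0.23 and 0.62 ± 0.40. HLA-B stood at 336, 378 and 253 in 16 µM PEO1 and 452, 392 and 504 in 16 µM PEO4, without overlap. HLA genes differ between people at many bases, and how that touched alignment to the reference was not tested.

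Of the 13 class II genes, which present peptides to CD4 T cells, 10 were higher in 16 µM PEO4 (9.75% of all genes). None was lower (7.19% of all genes), and the median log2 ratio was 1.12. HLA-DRA stood at 115, 154 and 117 in 16 µM PEO1 and 404, 380 and 351 in 16 µM PEO4, without overlap (log2 ratio 1.56 ± 0.32, edgeR adjusted p = 6.0e-04). HLA-DQA2 stood at 129, 103 and 119 in PEO1 and 486, 525 and 360 in PEO4 (1.98 ± 0.32). HLA-DRB5, which is absent from many haplotypes, was read at a low level in all libraries, at 85, 31 and 20 in 16 µM PEO1 and 95, 61 and 66 in 16 µM PEO4, and did not pass the test (0.78 ± 0.50). The neighbouring bin from 32.5 to 32.6 Mb was low as well, at 7.5, 9.1 and 9.5 CPM in 16 µM PEO1 and 14.4, 14.5 and 16.8 in 16 µM PEO4, and it still differed between the lines (log2 ratio 0.83 ± 0.12). From 32.4 to 32.75 Mb, 34 of 389 windows had no read and none of the 34 was repeated on the chromosome.

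Of the 5 genes of antigen processing in the MHC, 4 were higher in 16 µM PEO4, against 9.75% of all genes. PSMB8, a subunit of the immunoproteasome, stood at 200, 118 and 85 in PEO1 and 550, 316 and 464 in PEO4 (log2 ratio 1.78 ± 0.38). TAP2, a subunit of the transporter that carries peptides to HLA class I, stood at 158, 171 and 219 in PEO1 and 403, 429 and 515 in PEO4 (1.31 ± 0.19), and TAPBP, which links the transporter to class I molecules, at 179, 173 and 207 and 261, 456 and 389 (0.99 ± 0.22). TAP1, the other subunit of the transporter, did not pass at 0.79 ± 0.32.

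Of the 19 class III genes listed, 16 could be tested, with a median log2 ratio of 1.05. None was lower in 16 µM PEO4 (7.19% of all genes) and 9 were higher (9.75% of all genes). The higher genes included the complement genes C2 (1.12) and CFB (1.14), NOTCH4 (1.25), MSH5 (1.23 ± 0.18) and the heat shock gene HSPA1B (1.88 ± 0.50). TNF, the gene for tumour necrosis factor, did not pass at 16 µM (0.97 ± 0.35): it stood at 294, 185 and 249 in PEO1 and 323, 697 and 400 in PEO4, without overlap. EHMT2, which encodes a histone H3 lysine methyltransferase, stood at 365, 260 and 238 in 16 µM PEO1 and 235, 398 and 458 in 16 µM PEO4 and overlapped (0.36 ± 0.22). C4A, C4B and CYP21A2, which lie in a duplicated stretch, stayed under the minimum count. Between 31949834 and 32009421, 40 of 66 windows had no read in any library, and all 40 were repeated on the chromosome, as in the sequence of C4A printed above.

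**Figure D4:**
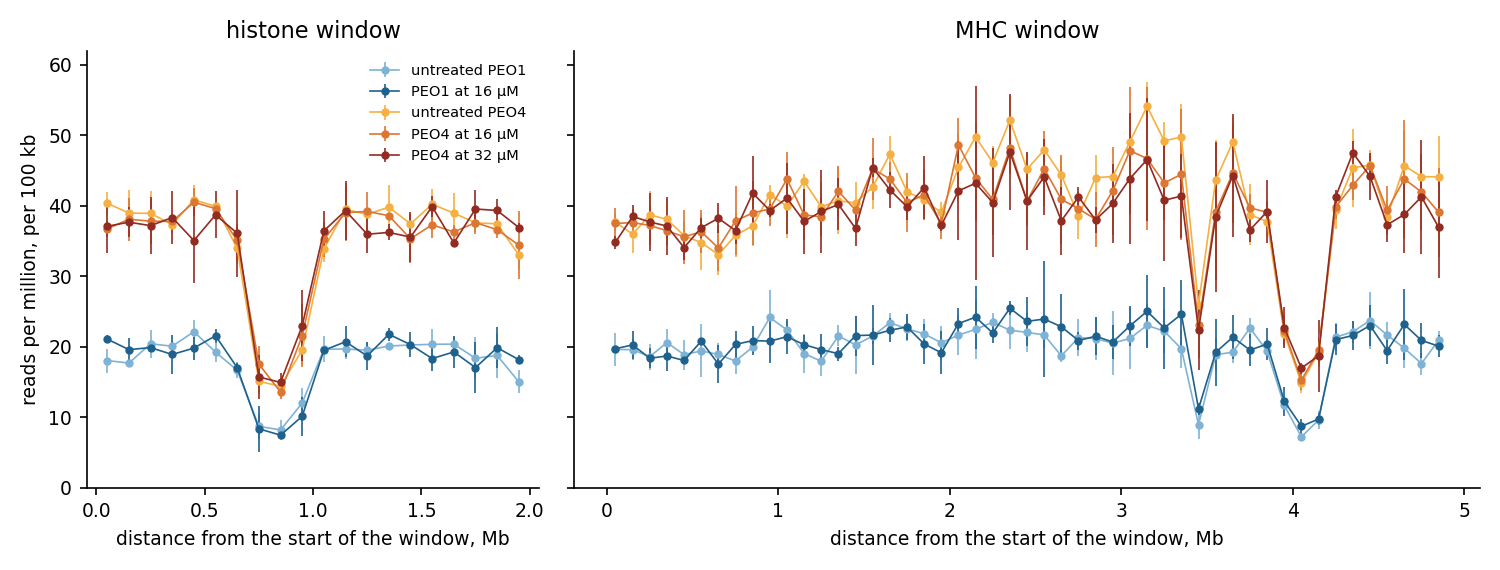
CPM in bins of 100 kb across the histone window and the MHC window, as the mean ± SD of the 3 libraries of each of the 5 groups. The PEO4 groups lie above the PEO1 groups in all 20 bins of the first and all 49 bins of the second window, and dips common to all groups mark the repeated stretches and the bin beside HLA-DRB5.

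All 49 bins of 100 kb of the MHC window were higher in 16 µM PEO4 (log2 ratio 0.81 to 1.16, median 0.96) and for 32 against 16 µM (0.75 to 1.16). Among all bins of the genome, 12.9% and 12.8% were higher in these comparisons. The bin with the highest ratio in untreated cells, 31.9 to 32 Mb, holds C4A, and stood at 11.7, 11.8 and 10.2 CPM in 16 µM PEO1 and 18.3, 27.7 and 23.3 in 16 µM PEO4 (1.07 ± 0.19). The bin with the lowest, 32.2 to 32.3 Mb, stood at 17.4, 21.8 and 19.4 in 16 µM PEO1 and 41.8, 37.9 and 39.5 in 16 µM PEO4 (1.04 ± 0.10).

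A further list held 14 genes of 6p, chosen for roles in the cell cycle, transcription or DNA damage or for lying at 34.3 Mb. Of these, 13 were higher in 16 µM PEO4, against 9.75% of all genes. POLH, the polymerase that copies past cisplatin crosslinks, stood at 258, 206 and 224 CPM per Mb in PEO1 and 377, 464 and 422 in PEO4 (log2 ratio 0.90 ± 0.14, edgeR adjusted p = 1.7e-05). FANCE, a subunit of the Fanconi anaemia core complex, which acts in the repair of interstrand crosslinks, stood at 213, 256 and 171 in PEO1 and 275, 485 and 473 in PEO4 (0.96 ± 0.23). MDC1, a scaffold of the response to DNA breaks that lies inside the MHC window, stood at 227, 211 and 202 in PEO1 and 357, 508 and 493 in PEO4 (1.10 ± 0.21). In all of these the lines did not overlap.

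E2F3, a transcription factor of the cell cycle, stood at 215, 170 and 196 in PEO1 and 378, 405 and 425 in PEO4 (1.08 ± 0.10). DEK, a chromatin protein, had a log2 ratio of 0.94 ± 0.16. CDKN1A, which encodes the cell cycle inhibitor p21, was the member that did not pass, at 345, 252 and 216 in 16 µM PEO1 and 290, 572 and 394 in 16 µM PEO4 (0.64 ± 0.26), which overlapped. These values are reads of genomic DNA and not transcript levels.

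On 6q, 20 listed genes were tested, and only EYS, which lies in block E, was higher in 16 µM PEO4 (9.75% of all genes). None was lower (7.19% of all genes). EYS, a gene of photoreceptors, stood at 157, 182 and 182 in PEO1 and 388, 313 and 335 in PEO4 (log2 ratio 1.01 ± 0.13). The other 19 lie beyond the step of PEO1. REV3L, the catalytic subunit of the polymerase that extends past crosslinks, stood at 391, 460 and 478 in PEO1 and 429, 373 and 410 in PEO4, which overlapped (-0.11 ± 0.11). HDAC2, a histone deacetylase, stood at 355, 421 and 397 in PEO1 and 372, 347 and 339 in PEO4, which also overlapped (-0.13 ± 0.14). FOXO3, a transcription factor of stress responses, had a log2 ratio of 0.01 ± 0.10 and TNFAIP3, an inhibitor of NF-kB signalling, of -0.19 ± 0.16.

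Grouped by block, 408 of the 546 tested genes of block A were higher in 16 µM PEO4, 37 of 43 in block C, 7 of 7 in block D and 43 of 49 in block E. None of the 290 genes of block F, the 7 of block G or the 80 of block H was called in either direction at 16 µM by edgeR. Among all genes of the genome, 9.75% were called higher and 7.19% lower. These counts are descriptions, since the blocks were drawn on untreated libraries of the same lines and the genes of a block are not replicates.

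The third question was whether cisplatin changed the reads on chromosome 6 over the untreated background of each line. The shares of the regions moved little, and with 3 libraries against 3 no exact test of them can fall under 0.1. Shares and bin tests are scaled within each library. A rise of adduct reads by the same factor in all regions would therefore not show, and only a shift between regions can. Relative to the untreated mean of the line, the log2 share of 6p changed by 0.00 ± 0.02 (SD, n = 3) in 16 µM PEO1, by -0.01 ± 0.01 in 16 µM PEO4 and by -0.02 ± 0.03 in 32 µM PEO4. The MHC window changed by 0.03 ± 0.09, -0.05 ± 0.09 and -0.08 ± 0.12 in the same order. The lowest adjusted p over 25 comparisons of responses was 0.789 (exact permutation tests). The response of the histone window at 16 µM differed by -0.03 between the lines without overlap (exact permutation p = 0.1), which was the one comparison of these shares without overlap. Over the rest of 6p in the same library, the density of the histone window was 0.878 ± 0.002 in untreated PEO1 and 0.885 ± 0.00239 in 16 µM PEO1, without overlap (exact permutation p = 0.1). Over block H, block A was 2.08 ± 0.0197 in untreated PEO4 and 2.03 ± 0.0296 at 32 µM without overlap (exact permutation p = 0.1, adjusted p = 0.84 over 21 comparisons).

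No bin of 100 kb on chromosome 6 passed the adjusted limit in any of the 5 response comparisons, as was the case in the genome (0.0% of all bins, edgeR). At an unadjusted p under 0.05, there were 61 of 1676 bins (3.64%) for 16 µM PEO1, beside 3.1% of all bins. There were 32 (1.91%) for 16 µM PEO4, beside 2.14% of all bins, and 132 (7.88%) for 32 µM PEO4, beside 9.3% of all bins. For the difference between the responses there were 58 bins (3.46%) at 16 against 16 µM, beside 4.25% of all bins, and 125 (7.46%) at 32 against 16 µM, beside 7.73% of all bins. These shares lay near those of the genome. DESeq2 also called none of the bins of chromosome 6. The median standard error of a response in a bin of 100 kb was 0.11 on the log2 scale, and that of a response difference was 0.16. Changes well above these standard errors could be missed too. A response difference of 0.53 ± 0.13 (log2, SE) in the bin from 129.6 to 129.7 Mb had an adjusted p of 0.602 in edgeR.

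The bins with the smallest p for the difference between the responses of 32 µM PEO4 and 16 µM PEO1 are described here, since 1 of them had been seen before. The bin from 34.3 to 34.4 Mb, which holds NUDT3 and the ribosomal protein gene RPS10, stood at 16.8, 19.3 and 16.9 CPM in untreated PEO1 and 25.4, 23.1 and 21.2 at 16 µM, without overlap. It stood at 40.2, 41.9 and 47.9 in untreated PEO4 and 42.4, 36.8 and 34.4 at 32 µM, which overlapped, and the response difference was -0.61 ± 0.16 (log2, SE). The bin from 21.7 to 21.8 Mb had a response difference of -0.44 ± 0.14. In the other direction, the bin from 129.6 to 129.7 Mb in LAMA2, which encodes a laminin chain of basement membranes, stood at 43.0, 43.4 and 45.8 in untreated PEO1, 35.0, 33.5 and 39.8 in 16 µM PEO1, 34.4, 35.3 and 32.7 in untreated PEO4 and 39.1, 41.3 and 43.1 in 32 µM PEO4. Its response difference was 0.53 ± 0.13, and that of the bin from 114.2 to 114.3 Mb, which holds part of HDAC2, was 0.45 ± 0.13. The GC content of the first bin was 44.4% with 122 GG or CC pairs per kb, and that of the LAMA2 bin was 36.1% with 78.5 pairs per kb, as in the sequences of both bins printed above.

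The responses of bins went with GC content across the whole chromosome. In 32 µM PEO4, the median log2 response was 0.18 in the 284 bins with a GC content under 36% and -0.21 in the 74 bins of 48% and over. In 16 µM PEO4 the same medians were 0.07 and -0.15, and in 16 µM PEO1 they were -0.02 and 0.12. The Pearson correlation of response and GC content over the 1676 bins was -0.77 in 32 µM PEO4, -0.59 in 16 µM PEO4 and 0.18 in PEO1. These are descriptions, since the bins of a library share its preparation and depth.

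The trend differed between libraries of a group. Over 10 percentage points of GC, the log2 ratio to the untreated mean changed by -0.45 in replicate 1 of 16 µM PEO4, by 0.03 and -0.05 in the other replicates, by -0.50 and -0.37 in replicates 2 and 3 of 32 µM PEO4 and by 0.03 in replicate 1. In 16 µM PEO1 it changed by 0.35 in replicate 1 and by -0.09 and -0.10 in the others, while the untreated libraries of both lines ranged from -0.17 to 0.12. Without replicate 1 of 16 µM PEO4, the correlation in that group was -0.05, and without replicate 2 or 3 it was -0.73 and -0.64. In 32 µM PEO4 it was -0.85, -0.56 and -0.67 without replicate 1, 2 or 3 of that group. Without replicate 1 of 16 µM PEO1 it was -0.30 in PEO1, and without replicate 1 of untreated PEO1 it was -0.10. A GC offset for each library removes such a trend by construction, whatever its source. With it, the correlation was -0.03 in PEO1, -0.01 in 16 µM PEO4 and 0.04 in 32 µM PEO4. Whether the GC trend of a library reflects adducts or its preparation was not tested.

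**Figure D5:**
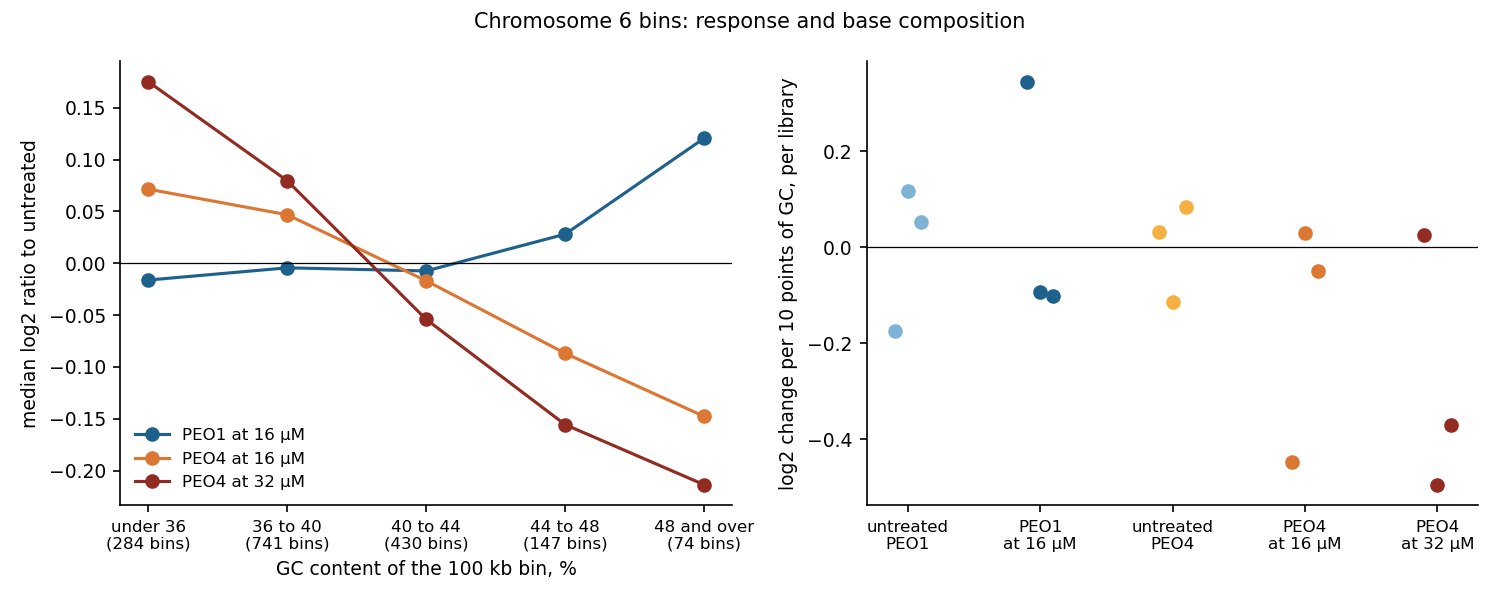
Left, median log2 ratio to untreated cells in bins of 100 kb of chromosome 6 by GC content, for the 3 treated groups. Right, change of the log2 ratio per 10 percentage points of GC in each library. The decline with GC in PEO4 is seen in replicate 1 at 16 µM and replicates 2 and 3 at 32 µM, at -0.45, -0.50 and -0.37.

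The MHC is rich in GC (44.8%, against 39.6% for the chromosome), and 12.7% of its pairs of neighbouring bases are GG or CC, against 9.73% for the chromosome and 10.4% for the histone window. Its share was 0.179%, 0.199% and 0.201% in the 3 libraries of 16 µM PEO4 and 0.207%, 0.177% and 0.183% at 32 µM, against 0.199%, 0.195% and 0.206% in untreated PEO4. The low values were those of the libraries in which GC-rich bins gave fewer reads, namely replicate 1 at 16 µM and replicates 2 and 3 at 32 µM. After division by each library's own GC trend, the response of the MHC window was 0.01 in 16 µM PEO4 and 0.03 at 32 µM on the log2 scale. The division removes any change that follows GC content, whatever its source, and the cause of the low values was not tested.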

How the data were processed

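Pt-exo-seq counts were taken from 1 table of raw counts as deposited by the authors. Per the study's methods and the submitters' processing notes, the authors trimmed single-end reads, aligned them to hg19 with Bowtie2, removed blacklisted regions and duplicates (Picard), and counted reads in windows of 1000 bp every 900 bp, so that reads in the overlap of 2 windows count in both. No normalisation was applied before deposit. Versions and the handling of reads with several matches were not given in the sources used here. Chromosome lengths matched GRCh37 for all 23 chromosomes compared, and chromosome Y was not used.

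Window counts were scaled to library totals (27.7 to 56.6 M) and summed by midpoint into bins of 100 kb (mean count of at least 50), bins of 1 Mb (at least 500) and protein-coding genes with 1 kb on each side (at least 20). Tests were made in edgeR 4.0.16 (R 4.3.3) by its quasi-likelihood F test, with TMM factors, all 15 libraries and 5 groups in 1 fit, and Benjamini-Hochberg adjustment over all features of the genome at a limit of 0.05. Shares, block levels and ratios within a library were compared by exact two-sided permutation tests in Python 3.11.15, whose smallest p with 3 libraries against 3 is 0.1. Blocks came from a segmentation of the untreated libraries in bins of 50 kb, and ends from the most likely split of window counts within 100 kb. Alternatives were DESeq2 1.42.0, limma 3.58.1 on log2 CPM with a prior count of 2, library totals, the groups compared alone, a GC offset, a GC trend divided out, windows averaging 5 counts or more, a replicate block and each library left out. The alternatives for the blocks and for the ends by dose were added after the data were seen. The scripts were tested on simulated data.

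The members and the gene lists were chosen with earlier results of these data known. Regions and lists were always described. Named bins were those with the highest and lowest line ratio in untreated cells (3 in each direction per arm for bins of 1 Mb, 1 in each direction per window for bins of 100 kb) and the 2 smallest p in each direction for the response difference. Named genes were a fixed set of DNA repair and HLA genes and the members of each list with the most extreme values or differences, and other members given as examples were chosen after their values were seen. Sequences were read from the GRCh37 primary assembly, and genes were taken from the GENCODE annotation mapped to it. Some sequences and 1 gene are not reported here. Sequence repetition was counted as stretches of 31 bases found more than once on chromosome 6. Intervals of the ends and standard errors do not cover copies of 1 molecule counted separately.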

Additional observations from a re-analysis of the deposited data

How the results depend on the processing

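The higher level of PEO4 on 6p kept its direction under every alternative run: DESeq2, library totals in place of TMM factors, a fit with only the groups compared, limma, a GC offset or GC trend per library, windows averaging 5 counts or more, and each library left out in turn. With 1 library left out, the log2 difference of 6p ran from 0.95 to 0.97 in untreated cells, from 0.95 to 0.97 at 16 µM and from 0.93 to 0.95 for 32 against 16 µM, and the number of bins of 100 kb called higher from 793 to 794 at 16 µM and from 794 to 807 for 32 against 16 µM. Between 483 and 489 genes were called higher in untreated cells and between 436 and 496 at 16 µM. With the GC trend divided out, the log2 difference of the share of 6q was 0.1055 at 16 µM and 0.1122 for 32 against 16 µM (exact permutation p = 0.1 each). In untreated cells that difference was 0.1135, given as a description.

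The few bins and genes called lower in PEO4, nearly all on 6q, changed in number with the setting, and the cause was not tested. Bins of 100 kb called lower in untreated cells numbered 34 with library totals, 37 with only the groups compared, 6 with a GC offset and 29 with limma. At 16 µM they numbered 10 with DESeq2, 2 with only the groups compared and 8 with a GC offset, and for 32 against 16 µM 3 with DESeq2, 4 with library totals, 5 with a GC offset and 3 with limma. Leaving out 1 library gave 6 to 14 in untreated cells, 1 to 13 at 16 µM and 1 to 5 for 32 against 16 µM. Bins of 1 Mb called lower in untreated cells numbered 5 with DESeq2, 22 with library totals, 17 with only the groups compared, 22 with limma and 0 to 2 with 1 library left out. At 16 µM they numbered 2 with DESeq2, 3 with library totals, 2 with a GC offset, 2 with limma and 0 to 2 with 1 library left out. Genes called lower in untreated cells numbered 34 with DESeq2, 86 with only the groups compared and 1 to 17 with 1 library left out, and at 16 µM 2 with DESeq2, 2 with a GC offset and 0 to 5 with 1 library left out.

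The replicate numbers do not pair the libraries: the correlation of deviations from the group means was on average -0.081 for the 30 pairs with the same number (from -0.677 to 0.634) and 0.037 for the 60 others. With the number as a replicate block, bins of 100 kb called lower numbered 2 at 16 µM and 1 for 32 against 16 µM, and genes called lower in untreated cells numbered 12. The block moved no other count of calls by more than 1.5 times.

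The responses of the regions were close to 0, and 16 of them changed sign after division by each library's own GC trend. On the log2 scale, the response of PEO1 was then 0.0019 for chromosome 6 and 0.0014 for 6q. That of PEO4 at 16 µM was -0.0031 for chromosome 6, 0.0025 for 6p, -0.0065 for 6q and 0.0103 for the MHC window, and at 32 µM it was 0.0034 for 6p, 0.0082 for the histone window and 0.0278 for the MHC window. The response difference at 16 µM was -0.0050 for chromosome 6, -0.0079 for 6q and 0.0048 for the MHC window, and for 32 against 16 µM it was -0.0005 for chromosome 6, 0.0002 for 6p, -0.0013 for 6q and 0.0223 for the MHC window. With 1 library left out, the response of PEO1 ran from -0.0294 to 0.0115 for chromosome 6, from -0.0126 to 0.0093 for 6p, from -0.0420 to 0.0197 for 6q and from -0.0158 to 0.0609 for the MHC window. That of PEO4 at 16 µM ran from -0.0002 to 0.0391 for chromosome 6, from -0.0093 to 0.0024 for 6p, from -0.0017 to 0.0681 for 6q and from -0.0857 to 0.0002 for the MHC window, and the response difference of 6p at 16 µM from -0.0144 to 0.0076. With a GC offset, 1 bin of 1 Mb was called in the response of PEO1 and 1 in the response difference at 16 µM.

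Among single genes and blocks, values near 0 changed sign. H2AC7 in untreated cells was at -0.3739 with a GC offset and ran from -0.0940 to 0.4432 with 1 library left out. FOXO3 at 16 µM was at -0.0070 with library totals and from -0.0411 to 0.0441 with 1 library left out, H4C9 at 16 µM ran from -0.5622 to 0.3834 and OR2B6 from -0.1789 to 1.9802. Over block H, block B in untreated cells was at 0.1122 and block F at 0.0434 with the GC trend divided out, and block G at -0.0081 with windows averaging 5 counts or more and, for 32 against 16 µM, at -0.0015 with the GC trend divided out. With 1 library left out, block B ran from -0.0667 to 0.0482 in untreated cells and from -0.0597 to 0.1440 at 16 µM, block F from -0.0418 to 0.0533 at 16 µM and from -0.0063 to 0.1124 for 32 against 16 µM, and block G from -0.0107 to 0.0212, from -0.0007 to 0.0355 and from -0.0149 to 0.0232 in the 3 comparisons.

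Depth limited single genes most: the median standard error of a line difference was 0.06 on the log2 scale in bins of 1 Mb, 0.11 in bins of 100 kb and 0.19 in genes.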
